A study of Mus musculus with 2 samples.

Results

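The histone cluster genes were the protein-coding genes whose GENCODE M21 symbol began with Hist1h, Hist2h, Hist3h or Hist4h, and 67 of 21938 protein-coding genes met that rule. They comprised 54 genes of the Hist1 cluster on chromosome 13, 10 of the Hist2 cluster on chromosome 3, 2 of the Hist3 cluster on chromosome 11 and 1, Hist4h4, on chromosome 6. By protein, 6 encoded the linker histone H1, 18 H2A, 18 H2B, 12 H3 and 13 H4. A further 3 of the 70 matching symbols were annotated as pseudogenes and were not members. Chromatin accessibility had been measured with DNase-seq, where DNase I digestion marks DNA free of nucleosomes, in whole left cerebral cortex of male B6CASTF1/J mice aged 14 days. B6CASTF1/J is the first-generation hybrid of C57BL/6J and CAST/EiJ, so each autosomal locus carried 1 allele of each strain, and the reads had been placed on the mm10 reference. The study held this 1 group with 2 biological replicates, with no treatment and no second condition. Replicate 1 was labelled as tissue of 3 males and replicate 2 as tissue of 1 male, and both labels carried the same donor identifier, so the spread between the libraries may be partly technical. No test between conditions was possible, and comparisons are descriptions given for each library.

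Histones package DNA into nucleosomes, with H2A, H2B, H3 and H4 forming the core and H1 binding the linker DNA. Most are made from clustered, intronless genes that are transcribed in S phase, when new DNA must be packaged, and whose mRNAs end in a conserved hairpin in place of a poly(A) tail. The coactivator NPAT gathers at the clusters, the factor HINFP binds H4 promoters, and the CCAAT-binding complex NF-Y and octamer-binding proteins act at H2A and H2B promoters, many of which lie back to back. Cells that have stopped dividing rely largely on replication-independent histone genes elsewhere in the genome. In bulk tissue, a low signal can come from few cells with an open site or from weak opening in many cells, and these cannot be told apart.

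The deposited files list peaks with a signal value, footprints (short stretches protected inside open DNA) and intervals in which the local cut rate passed a false discovery rate of 0.05. Replicate 1 had 150726 peaks with a median signal of 0.549, and replicate 2 had 155536 with 0.663. Sequencing depth is not given in the sources used here and the scaling of the signal is not stated, so heights are compared within a library. As a check of the tissue, 5 of 10 genes of cortical cell types had a promoter peak in both libraries, among them Neurod6 of excitatory neurons with 1.66 in replicate 1 and 2.91 in replicate 2, Slc17a7 with 1.31 and 1.72, and the astrocyte gene Gfap with 3.14 and 2.08. Aqp4, Cx3cr1 and Gad1 were among those with none within 500 bp of the annotated start. The liver gene Alb, the heart gene Myh6 and the T cell gene Cd3e had no promoter peak. All 7 genes of dividing cells had one in both libraries, with Mcm5, Pcna and Top2a at 11.6, 6.76 and 7.45 in replicate 1 and 15.2, 8.51 and 6.30 in replicate 2. Their part in the histone signals was not tested.

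Most histone cluster promoters were open in the cortex, which here means that a peak was listed. A peak overlapped the 500 bp on either side of the start in both libraries at 56 of 67 genes (83.6%), against 12915 of 21871 other protein-coding genes, and 59.1% of all protein-coding genes met this criterion. At least 1 footprint lay in the window in both libraries at 56 genes, against 57.4% of all protein-coding genes. Only Hist1h1t and Hist1h2ab had a peak in 1 library alone, which was the case for 3.74% of all protein-coding genes, and 9 genes had none in either. The height of the strongest promoter peak was near that of other open promoters, with medians of 3.95 in replicate 1 and 4.40 in replicate 2 among histone cluster genes and 3.63 and 4.07 among the other genes. The histone median was the higher in both libraries. The median number of footprints in the window was 6 in both libraries for open histone promoters, and 7 and 6 for other open promoters. The promoter windows of histone cluster genes held a median of 62 CpG dinucleotides, compared with 41 at other genes. In the range of 52.5 to 73 CpG, the middle values of the family, 34 of 34 histone cluster genes were open in both libraries, against 3793 of 4099 other genes (92.5%). Their median heights in this range were 3.50 in replicate 1 and 4.10 in replicate 2, below the 4.59 and 5.31 of the other genes, while over all CpG counts they were above.

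**Figure D1:**
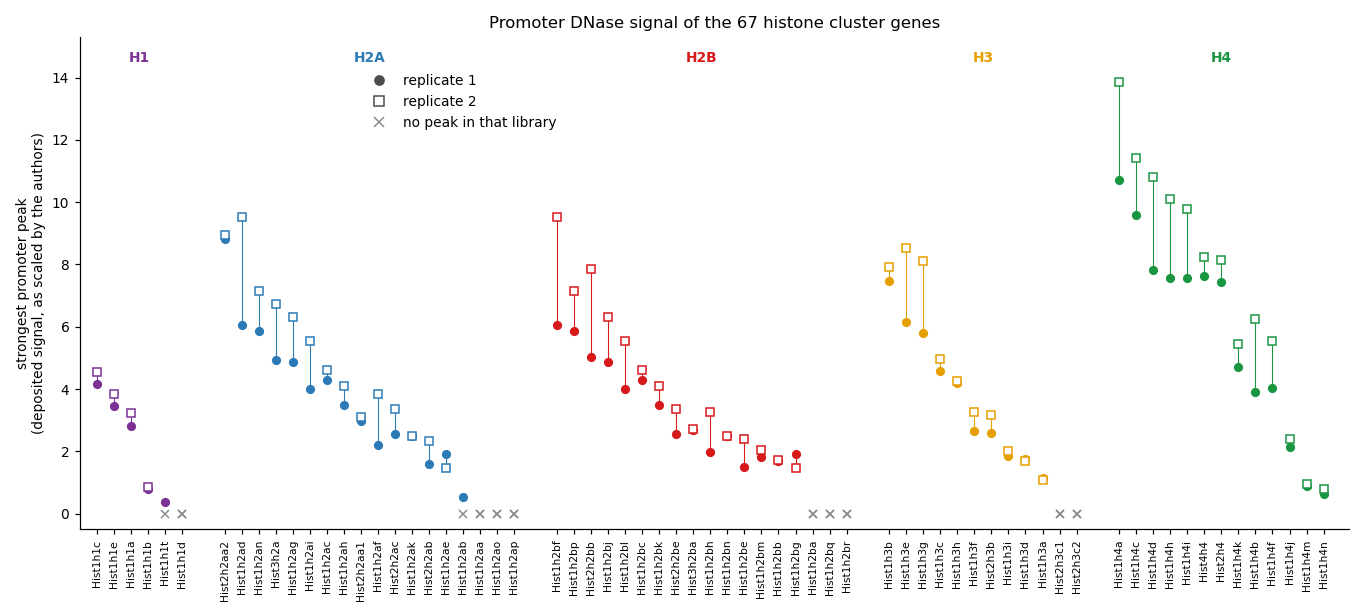
Signal of the strongest peak within 500 bp of the start (deposited units, linear axis) for each of the 67 histone cluster genes, grouped by histone type and ordered by mean; circles are replicate 1, squares replicate 2 and crosses mark no peak in that library. The 13 H4 genes all have peaks, and Hist1h4a is the highest of all with 10.7 and 13.9.

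By type of histone, H4 genes had the highest medians, 7.43 in replicate 1 and 8.14 in replicate 2, and all 13 were open in both libraries. H2A genes followed with 3.76 and 4.36 and 14 of 18 open in both. H3 genes had 3.43 and 3.77 with 10 of 12 open, H1 genes 3.13 and 3.54 with 4 of 6, and H2B genes 2.69 and 3.36 with 15 of 18. Over all clusters, the order of H4 above H2A, H3, H1 and H2B was the same in both libraries, but the ranges overlapped. In replicate 1, H4 signals ran between 0.639 and 10.7 and H2A signals reached 8.83. Within the Hist1 cluster, H4 was again highest, with medians of 4.72 in replicate 1 and 6.25 in replicate 2. The order of the other types there differed between the libraries. H3 genes of Hist1 had 4.21 and 4.26, H2A 4.01 and 4.62, H1 3.13 and 3.54, and H2B 2.99 and 3.69. Of the 10 histone cluster genes with the highest mean signal, 7 encoded H4. By cluster, 45 of 54 Hist1 genes were open in both libraries with medians of 4.01 and 4.55, and 8 of 10 Hist2 genes with 2.78 and 3.36. Both Hist3 genes and Hist4h4 were open in both libraries. The types also differed in repeated sequence, counted as 31-base words of the promoter window that occur at more than 1 place in the genome. Over all genes of a type, the median share of such words was 21.98% for H4 and 35.9% for H3. It was 48.1% for H2B, 51.7% for H2A and 1.199% for H1. The part of repeated sequence in the heights by type was not tested.

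Among the H4 genes, which all encode the same core histone, Hist1h4a led with 10.7 in replicate 1 and 13.9 in replicate 2. Those values stood at the 96.8th and 95.8th percentiles of all open protein-coding promoters of each library. Hist1h4c had 9.59 and 11.4, and Hist1h4d 7.84 and 10.8. All 3 signals were higher in replicate 2, and no other histone cluster gene had a higher mean. The H4 genes of the small clusters were close to these, with 7.62 and 8.26 at Hist4h4 and 7.43 and 8.14 at Hist2h4. The lowest were Hist1h4m with 0.881 and 0.94 and Hist1h4n with 0.639 and 0.792, more than 10 times below Hist1h4a in both libraries. These last promoters were also almost wholly repeated in the genome: 94.6% and 97.3% of their 31-base words occurred at more than 1 place.

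A short element of H4 promoters, GGTCCG, lay within 250 bp before to 50 bp after the start at 12 of 13 H4 genes, in each case on the gene's own strand and beginning at positions between -80 and -11 from the start (median position -49). On either strand it occurred at 15 of 67 histone cluster genes (22.4%) and 9.57% of other protein-coding genes. The 12 stretches are printed because they are the sites over which the footprints of this group lie. Each shows 10 bases before the element, the element in capitals and 24 bases after it, 5′ to 3′ on the gene's strand, from RefSeq's GRCm38.p6, the assembly that mm10 names. They include chr13:23698475-23698514 on the minus strand for Hist1h4c, chr13:23581511-23581550 on the plus strand for Hist1h4d, chr6:136804434-136804473 on the minus strand for Hist4h4 and chr3:96263350-96263389 on the minus strand for Hist2h4.
Hist1h4c: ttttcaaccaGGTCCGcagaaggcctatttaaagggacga
Hist1h4d: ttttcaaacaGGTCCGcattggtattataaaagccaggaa
Hist1h4h: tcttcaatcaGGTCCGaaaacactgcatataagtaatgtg
Hist1h4i: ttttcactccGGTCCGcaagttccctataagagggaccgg
Hist4h4: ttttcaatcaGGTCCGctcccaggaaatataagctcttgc
Hist2h4: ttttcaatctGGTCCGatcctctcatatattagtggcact
Hist1h4k: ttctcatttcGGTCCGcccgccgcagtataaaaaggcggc
Hist1h4b: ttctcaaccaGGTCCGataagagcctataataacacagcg
Hist1h4f: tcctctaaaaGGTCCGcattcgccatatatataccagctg
Hist1h4j: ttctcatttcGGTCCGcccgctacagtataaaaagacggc
Hist1h4m: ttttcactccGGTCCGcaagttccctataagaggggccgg
Hist1h4n: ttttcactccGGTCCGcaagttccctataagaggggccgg

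At least 1 base of the element lay in a footprint in replicate 1 at all 12 promoters and in both libraries at 9. The exceptions in replicate 2 were Hist1h4j, Hist1h4m and Hist1h4n. In replicate 1 the footprint held the whole element at Hist1h4i, Hist4h4, Hist1h4b and Hist1h4m. At Hist2h4, Hist1h4f, Hist1h4k and Hist1h4n it reached only the last base of the element. Over all open histone cluster promoters, 11 of 15 occurrences (73.3%) were footprinted in both libraries, against 479 of 1998 occurrences (24.0%) in other open promoters. The 2 sets were not matched for position. Quartiles of the position were -73.5 and -47 in open histone promoters and -153.75 and -15 in other open promoters. Footprints in both libraries covered 17.8% of the bases searched in open histone promoters and 14.3% in other open promoters. These are shares of single bases, while an occurrence counted when any 1 of its bases was in a footprint. They are therefore not the share to be met by a word placed at random. Counted from the start, the footprint over the element of Hist1h4c ran over positions -49 to -22 in replicate 1 and -54 to -22 in replicate 2. That of Hist1h4i covered -49 to -17 and -53 to -16. Both footprints extended past the element toward the start, over the A- and T-rich stretch seen at the right of the printed sequences. An exact TATAAA followed 15 or 16 bp after the beginning of the element at Hist1h4d, Hist1h4k and Hist1h4j. Hist1h4m and Hist1h4n carried the same 40 bases, so a read confined to that stretch fits both. The highest H4 promoter, Hist1h4a, had no exact match: its closest stretch to the 16 bases of Hist4h4 that end with the element differed at 6 of 16 positions. A match is a description of letters and not proof of a bound factor. Hist1h4i, Hist1h4j and Hist1h4k are named here for their sequence, after their values were seen.

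The genes of H2A and H2B, which pair into a dimer in the nucleosome, were in 12 cases arranged as divergent pairs with starts 176 to 306 bp apart (median 260 bp). At 9 of the 12 pairs a peak lay between the starts in both libraries, it was the strongest promoter peak of both genes, and intervals of raised cut rate covered 100% of the bases between the starts. Each such peak therefore counts at 2 genes, and the 58 and 56 open histone cluster genes had 49 and 46 distinct strongest peaks. Only at Hist1h2ae and Hist1h2bg did 1 peak reach over both starts, and it was low, with 1.91 in replicate 1 and 1.45 in replicate 2. The peak of Hist1h2bf and Hist1h2ad was the highest of the pairs, with 6.04 and 9.54, and that of Hist1h2an and Hist1h2bp had 5.88 and 7.16. Genes in pairs had a median of 4.01 and 4.62 over the 18 of 24 that were open in both, and H2A and H2B genes outside pairs 2.21 and 3.10 over the 11 of 12 that were open in both libraries.

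The DNA between the starts of 2 pairs is printed to set an open pair beside one with no peak. Hist1h2bf and Hist1h2ad lie on either side of chr13:23574197-23574380, and the testis variants Hist1h2ba and Hist1h2aa on either side of a stretch of which the first 300 bases, chr13:23934157-23934456, are given (GRCm38.p6, plus strand). Capitals mark the word CCAAT, the TATA box TATAAA and the octamer ATTTGCAT, or their reverse complements.
Hist1h2bf-Hist1h2ad: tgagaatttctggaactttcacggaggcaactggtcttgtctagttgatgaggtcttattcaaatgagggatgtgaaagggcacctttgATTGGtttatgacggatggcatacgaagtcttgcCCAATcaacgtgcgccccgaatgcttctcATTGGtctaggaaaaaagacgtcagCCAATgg
Hist1h2ba-Hist1h2aa: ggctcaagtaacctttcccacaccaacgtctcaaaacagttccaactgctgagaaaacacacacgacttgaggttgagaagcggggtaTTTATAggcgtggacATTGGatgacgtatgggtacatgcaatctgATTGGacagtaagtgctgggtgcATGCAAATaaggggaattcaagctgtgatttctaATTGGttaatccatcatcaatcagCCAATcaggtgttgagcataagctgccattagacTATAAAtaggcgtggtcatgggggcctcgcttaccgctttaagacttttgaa
The open pair held 4 CCAAT words and neither of the other marked words, and the pair with no peak held 4 CCAAT words, 2 TATAAA words and 1 octamer. CCAAT lay between the starts of all 12 pairs, with 2 to 5 copies, TATAAA at 7 and the octamer at 5. Besides the testis pair, those of Hist1h2bq with Hist1h2ao and Hist1h2ap with Hist1h2br had no peak. Their promoters were wholly repeated, so the missing peak does not show closed chromatin there. Any relation of these words to the peaks was not tested. In the 300-base promoters, CCAAT occurred at all 18 H2A and all 18 H2B genes, 11 of 12 H3, 5 of 6 H1 and 4 of 13 H4 genes. Altogether 56 of 67 histone cluster genes (83.6%) had it, against 38.9% of other protein-coding genes. The octamer was found at 7 H2A and 8 H2B genes and at no gene of the other types, 22.4% of all histone cluster genes and 1.51% of the others. Since paired genes share the words between them, its 15 occurrences were 10 sites, of which 1 lay in a footprint in replicate 1 alone, 2 in replicate 2 alone and none in both libraries. TATAAA occurred at 37 genes (55.2%), against 12.5% of the others, and the E2F-type word TTTGGCGC at none, against 0.695%. In open promoters, 25.98% of CCAAT words and 38.9% of TATAAA words of histone cluster genes were footprinted in both libraries, compared with 23.1% and 11.03% in other genes. These shares were not matched for position either. The median position of TATAAA was -62 in open histone promoters and -138 in other open promoters. Counted once per site, 25 of 96 CCAAT sites and 11 of 29 TATAAA sites of the family were footprinted in both. Words were searched on both strands, and a single overlap of different words occurred, CCAAT with GGTCCG at Hist1h3i.

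**Figure D2:**
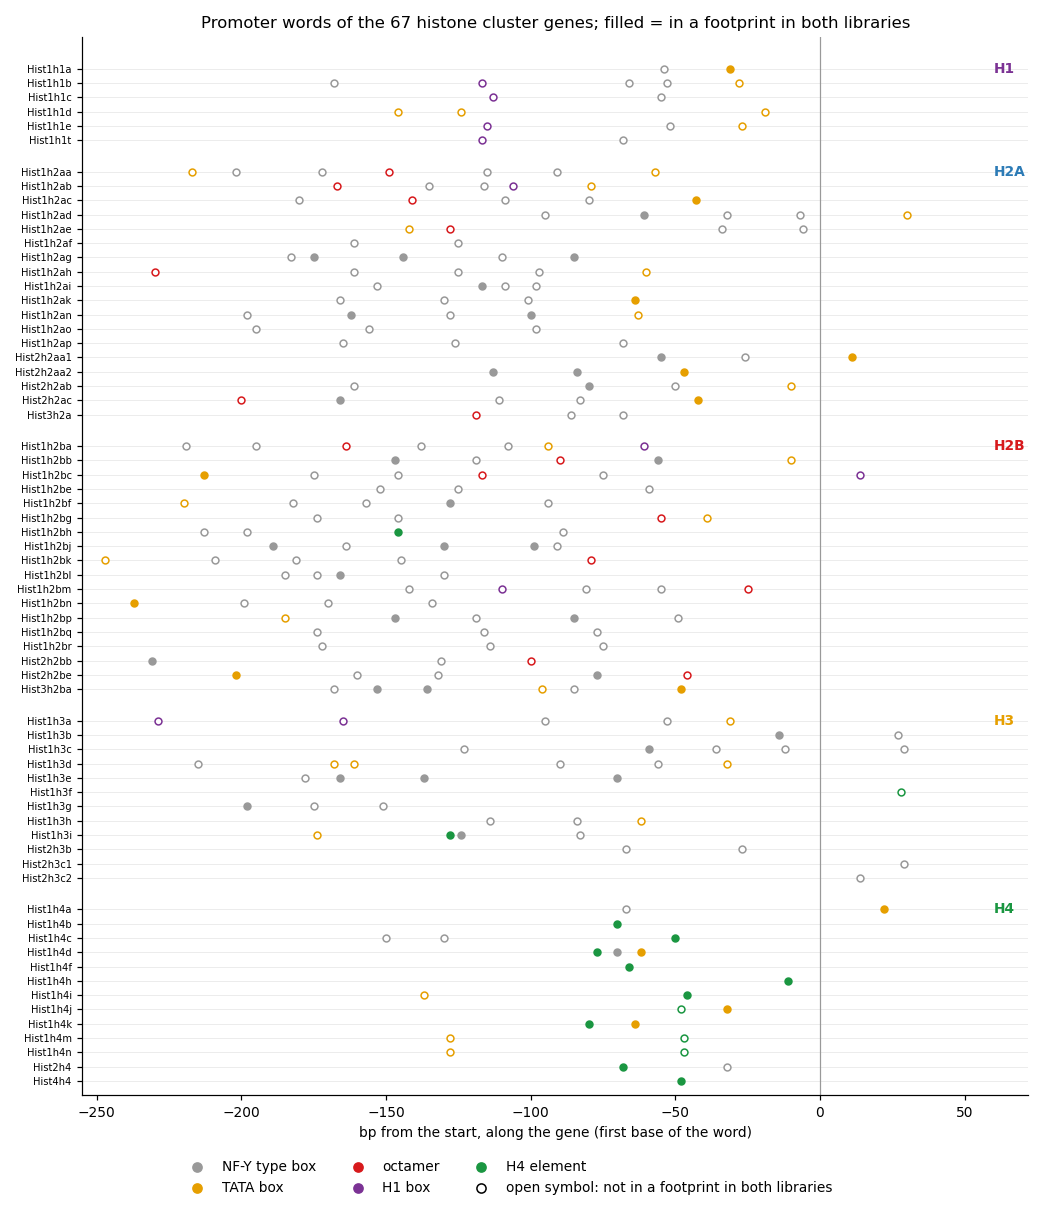
Position of each searched promoter word (bp from the annotated start along the gene) at the 67 histone cluster genes, in rows by histone type. Filled symbols had at least 1 base of the word in a footprint in both libraries. The green H4 elements lie within 80 bp before the H4 starts, 9 of 12 of them filled, and none of the 15 red octamers is filled.

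Outside the pairs, H2A and H2B promoters ranged widely. Hist2h2aa2, one of a pair of near copies, had 8.83 in replicate 1 and 8.96 in replicate 2, and its copy Hist2h2aa1 had 2.96 and 3.10. Of their promoter windows 70.6% and 67.8% of the 31-base words were repeated, so the split of reads between them is uncertain. The strongest peak of Hist2h2aa1 was centred 14 bp after the start in replicate 1 and 226 bp before it in replicate 2. Hist2h2bb had 5.03 and 7.86, Hist3h2a 4.94 and 6.72, Hist3h2ba 2.69 and 2.71, and Hist2h2ab 1.58 and 2.35. The Hist3h2a peak was also the strongest peak at the start of the pseudogene Hist3h2bb-ps. In the Hist2 cluster, the pair of Hist2h2ac and Hist2h2be shared a peak of 2.56 and 3.36. Its windows held many footprints, 14 in replicate 1 and 12 in replicate 2 at Hist2h2ac and 15 and 13 at Hist2h2be, as did that of Hist3h2a with 15 and 12. At the low end lay Hist1h2bb with 1.70 and 1.73. Hist1h2ab, 1 of the 2 genes seen in replicate 1 alone, had 0.545 there.

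H3 genes, which encode the core histone whose tail carries many regulatory marks, had their highest means at Hist1h3b, with 7.48 in replicate 1 and 7.91 in replicate 2, at Hist1h3e, with 6.15 and 8.53, and at Hist1h3g, with 5.79 and 8.10. Hist1h3b was the highest of them in replicate 1 and Hist1h3e in replicate 2. The lowest open H3 promoters, Hist1h3a with 1.13 and 1.09 and Hist1h3d with 1.75 and 1.68, were near equal in the 2 libraries. In the Hist2 cluster Hist2h3b had 2.60 and 3.18, while Hist2h3c1 and Hist2h3c2 had no peak, no footprint and no interval, and 96.9% and 95.9% of their promoter words were repeated.

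Linker histone promoters reached at most 4.18 in replicate 1 and 4.55 in replicate 2, the values of Hist1h1c. Of the others, Hist1h1e had 3.45 and 3.85, Hist1h1a 2.82 and 3.24, and Hist1h1b 0.781 and 0.866. The testis gene Hist1h1t had a weak peak of 0.374 in replicate 1, centred 419 bp inside the gene, and none in replicate 2. Hist1h1d had no peak at its GENCODE start at chr13:23553262, whose window held 4 CpG. RefSeq places its start 1770 bp further on, at chr13:23555032, and a peak of 2.44 and 2.60 lay there. The H1 box AAACACA occurred at 4 of 6 H1 genes, at a median position of -116, at 5 other histone cluster genes and at 6.37% of other protein-coding genes, and at Hist1h1d it lay at -122 from the RefSeq start. The stretches that follow it are printed because they show the same order of words in genes with a peak in both libraries and in Hist1h1t. Each begins with the box and runs 100 bases toward the gene, on its own strand (GRCm38.p6) (chr13:23738695-23738794 plus for Hist1h1c, chr13:23622574-23622673 minus for Hist1h1e, chr13:21780643-21780742 minus for Hist1h1b, chr13:23695697-23695796 plus for Hist1h1t and chr13:23554910-23555009 plus for Hist1h1d). Capitals mark the H1 box, the CCAAT word or its reverse complement, and the TATA box.
Hist1h1c: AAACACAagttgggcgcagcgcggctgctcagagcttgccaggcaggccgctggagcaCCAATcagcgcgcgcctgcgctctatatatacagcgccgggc
Hist1h1e: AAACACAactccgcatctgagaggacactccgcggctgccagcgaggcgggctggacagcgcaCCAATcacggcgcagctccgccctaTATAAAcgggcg
Hist1h1b: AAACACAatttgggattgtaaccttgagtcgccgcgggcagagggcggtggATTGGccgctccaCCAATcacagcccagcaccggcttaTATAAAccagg
Hist1h1t: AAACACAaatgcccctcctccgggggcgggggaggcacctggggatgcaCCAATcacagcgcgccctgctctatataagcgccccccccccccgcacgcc
Hist1h1d, RefSeq start: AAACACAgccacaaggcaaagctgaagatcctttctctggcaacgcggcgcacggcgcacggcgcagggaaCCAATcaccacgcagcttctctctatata
In all 5, which were printed because they carry the box, it was followed by CCAAT closer to the start. Hist1h1a, open in both libraries, had no exact box and carried CCAAT at -54 and TATAAA at -31. The TATAAA of Hist1h1d, at -26 from its RefSeq start, runs past the end of the printed stretch. None of the 10 AAACACA words of the histone cluster genes lay in a footprint in both libraries.

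The 9 genes without a peak in either library also had no interval of raised cut rate and no footprint in their windows. Of these, 6 had promoters that were repeated almost throughout: Hist1h2bq, Hist1h2ao, Hist1h2ap and Hist1h2br at 100% of their 31-base words, and Hist2h3c1 and Hist2h3c2. The stretches between the starts of the Hist1h2bq and Hist1h2ao pair and of the Hist1h2ap and Hist1h2br pair shared 235 identical bases on opposite strands. The other 3 were the testis pair, Hist1h2ba at 17.4% and Hist1h2aa at 5.09% repeated words, and Hist1h1d at its GENCODE start. Among genes with under 90% of words repeated, 54 of 59 histone cluster genes (91.5%) were open in both libraries, against 12901 of 21057 other genes (61.3%). With 90% or more repeated, 2 of 8 histone cluster genes were open, against 14 of 814 other genes (1.72%). The 8 were the 6 above and the Hist1h4m and Hist1h4n promoters. Repeated words were common across the family, with a median of 35.7% of the window, against 0 at other genes. How the authors treated reads that fit several places is not given in the sources used here, so a missing peak at a repeated promoter does not show closed chromatin.

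**Figure D3:**
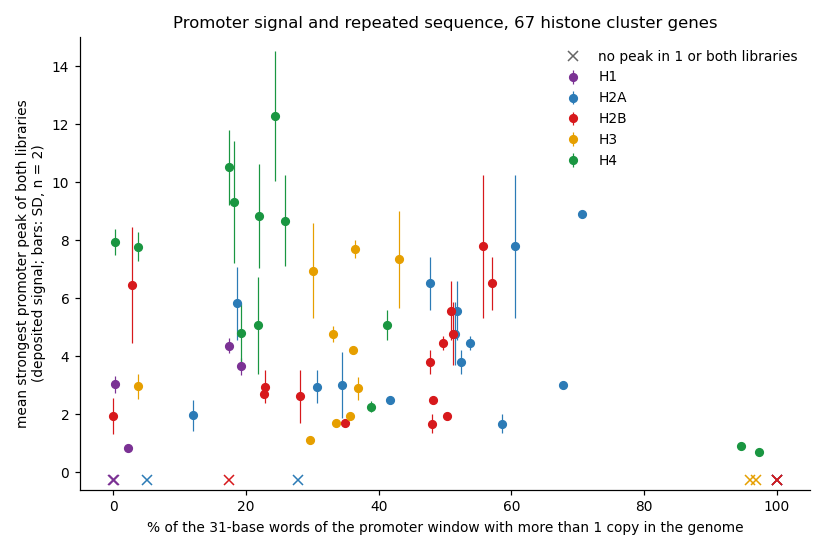
Mean strongest promoter peak of both libraries (deposited signal, bars SD, n = 2) against the percent of 31-base words of the promoter window that occur more than once in the genome, for the 67 histone cluster genes by type; crosses are genes with no peak in 1 or both libraries. Of the 8 genes at 90% or more, 6 have no peak, and Hist1h4m and Hist1h4n have the only peaks.

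Counting all bases, the stretch of raised cut rate was narrower at histone cluster genes than at other open genes. Averaged over the 56 open genes in bins of 20 bp, intervals of raised cut rate covered 98.2% of the bases of the bin centred 50 bp before the start in both libraries. Other open genes reached 91.8% in the bin 10 bp after the start in replicate 1 and 90.02% in that 10 bp before it in replicate 2. The bins at or above 50% of that highest share added up to 620 bp in replicate 1 and 480 bp in replicate 2 at histone cluster genes, against 1000 and 900 bp at other genes. Restricted to the 41 open histone cluster genes with under 50% repeated words, the width was 840 and 500 bp. Intervals covered a median of 64.2% and 58.0% of the promoter window at open histone cluster genes, compared with 76.3% and 70.9% at other genes. Over single-copy bases alone the medians were 77.4% and 74.5%, against 77.3% and 71.7%, so the difference was not seen there. The gene bodies, which are short, had a median of 38.2% and 33.2% of their bases in intervals, against 3.63% and 3.44% in the bodies of other open genes. Footprints were densest just before the start, where they covered 40.4% of the bases of open histone cluster genes in the bin 30 bp before it in replicate 1 and 43.7% in that 70 bp before it in replicate 2, compared with 28.6% and 29.3% at other genes in the bin 10 bp before it.

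**Figure D4:**
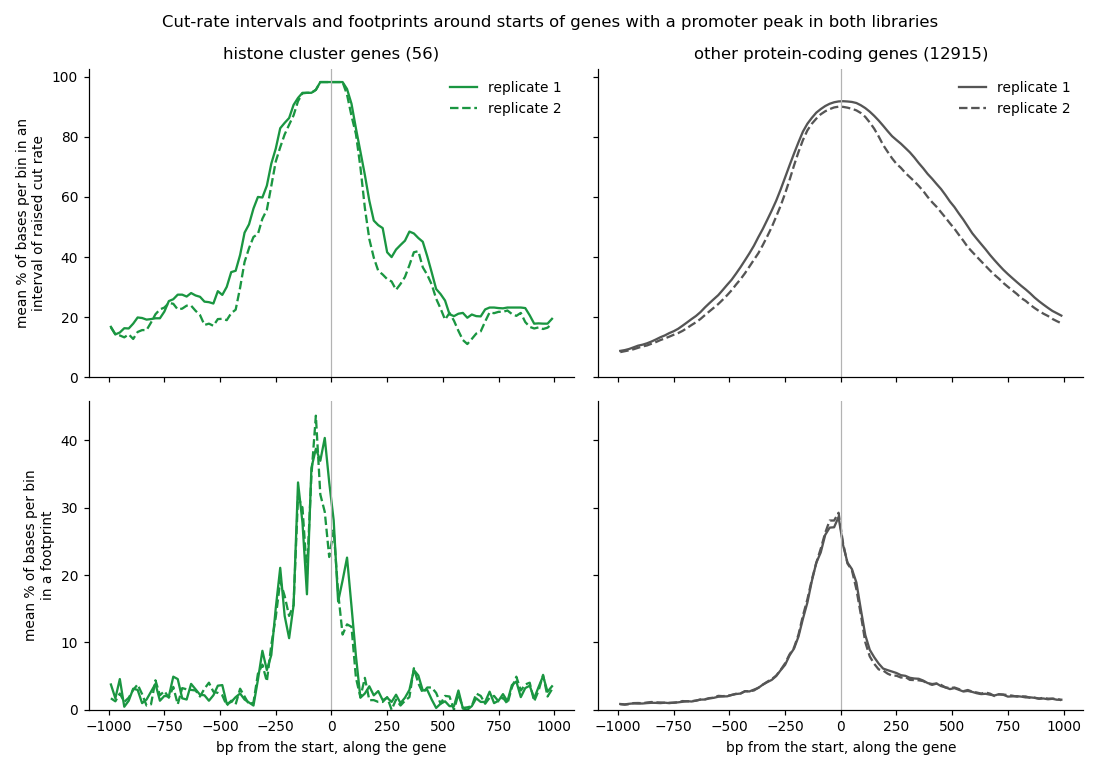
Mean percent of the bases of each 20 bp bin that lie in an interval of raised cut rate (top) or in a footprint (bottom), by distance from the start, for the 56 histone cluster genes (left) and 12915 other protein-coding genes (right) with a promoter peak in both libraries; solid lines are replicate 1 and dashed lines replicate 2. The histone profile is narrower, reaches 98.2% at 50 bp before the start, and has a lower second rise inside the genes.

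Most of these promoters had a lower value in replicate 1, as other genes did. The signal was lower in replicate 1 at 50 of 56 genes, with a median log2 ratio of replicate 1 over replicate 2 of -0.24 and an SD of 0.25 over genes, and at other open genes the median was -0.22. Relative to the median of all protein-coding genes the histone median was -0.02. The lowest ratios were -0.79 at Hist1h2af, with 2.21 in replicate 1 and 3.83 in replicate 2, -0.74 at Hist1h2bh, with 1.97 and 3.27, and -0.68 at Hist1h4b, with 3.89 and 6.25. The highest was 0.40 for the peak that Hist1h2ae and Hist1h2bg share, followed by 0.06 at Hist1h3d. At Hist1h2be, Hist1h3f and Hist2h2aa1 the strongest peak lay at a different place in each library, so their ratios do not compare the same peak. With 1 sample behind each value, the ratios have no replicate check.

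Along the chromosomes the genes formed 7 blocks, with neighbours at most 100 kb apart and 5 kb added at each end, 496 kb in all. The blocks held 25.6 peaks per 100 kb in replicate 1 and 23.8 in replicate 2, against 5.53 and 5.71 over the 21 chromosomes, a 4.63- and 4.17-fold density. Footprints were 6.83- and 6.496-fold denser. Gene starts were 17.8-fold denser in the blocks, so peaks were less enriched there than starts. The large Hist1 block of 29 genes, chr13:23526050-23769406, had 25.9 and 23.4 peaks per 100 kb, and the 18-gene block at chr13:21710763-21842530, which holds the 4 wholly repeated promoters, had 18.2 and 19.0. A small block of 5 genes at chr13:22030164-22048676 had 32.4 and 37.8, and the block of the testis pair at chr13:23928773-23939851 had 9.03 in each library, 1 peak that lay outside the promoters. The Hist2 block, chr3:96214865-96275132, had 26.5 and 19.9, the Hist3 block, chr11:58943920-58961830, 66.998 and 61.4, and the Hist4 block, chr6:136796553-136809415, 38.9 in each library. Between the 5-gene and the 29-gene Hist1 blocks, 1477 kb with 36 vomeronasal receptor genes among 40 protein-coding genes had 5.21 and 4.94 peaks per 100 kb, and none of those 36 had a promoter peak in both libraries. The 188 kb between the 18-gene and the 5-gene blocks, with 30 tRNA genes, had 21.9 and 17.6.

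**Figure D5:**
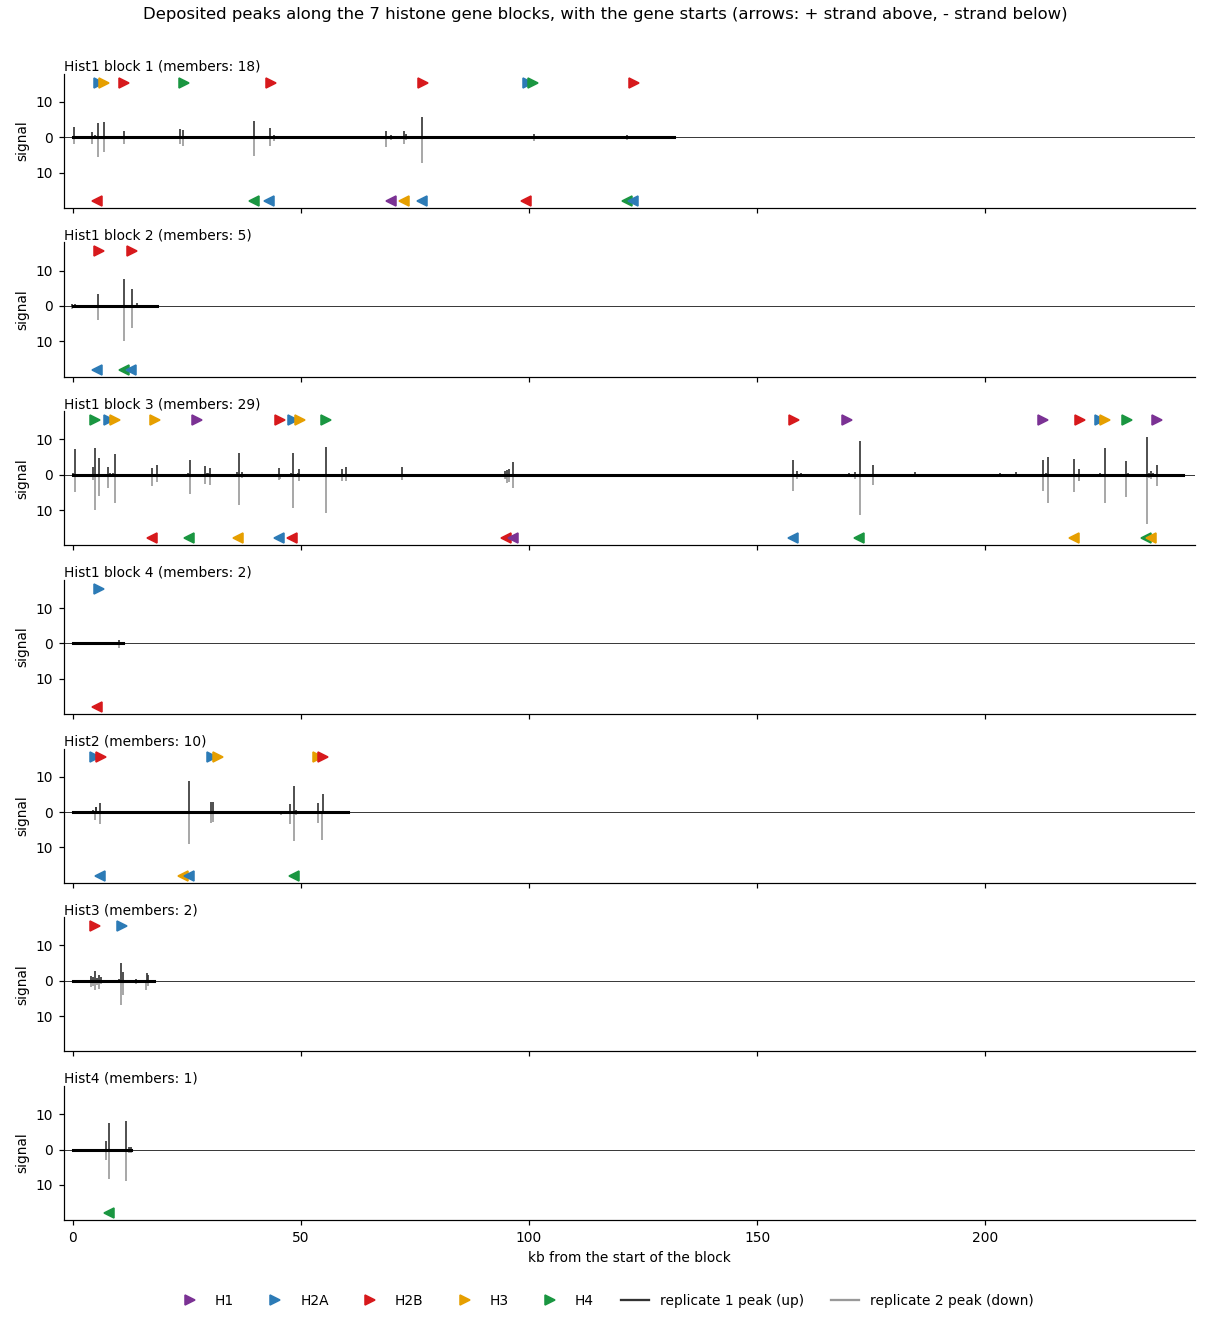
Deposited peaks along the 7 blocks (kb from the start of the block; signal of replicate 1 upward and of replicate 2 downward), with the starts of the histone cluster genes as triangles pointing along the gene, coloured by type. Peaks sit at most starts, the testis block of 2 genes has 1 peak away from both starts, and the right part of the 18-gene block holds starts with no peak.

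Of the peaks in the blocks, 76 in replicate 1 (59.8%) and 72 in replicate 2 (61.0%) overlapped a histone promoter, 40 and 38 were at no annotated start or tRNA gene, and 4 and 5 lay at tRNA genes. All 3 tRNA genes in the blocks had a peak in both libraries, and 268 of 403 (66.5%) did across the genome. The only other protein-coding gene wholly inside a block, the iron regulator Hfe, had a low promoter peak of 0.672 in replicate 1 and 0.663 in replicate 2. Away from annotated starts, 33 peaks recurred in both libraries, and 14 of them lay within 1000 bp after a coding end. Counted per gene, 13 of 67 histone cluster genes (19.4%) had a peak there that was not within 500 bp of any protein-coding start, in both libraries, against 6.92% of the other genes and 6.96% of all protein-coding genes. They were 4 of 6 H1 genes, 6 of 18 H2B, 3 of 13 H4 and none of the 18 H2A or 12 H3 genes, and Hist1h1t and Hist1h4c shared a single such peak. The peak after Hist1h1c, at chr13:23739701-23739900 in replicate 1 and centred 317 bp past the coding end, had 4.98 in replicate 1 and 8.10 in replicate 2, above the promoter of the gene itself. That after Hist1h4h had 4.74 and 5.90. Those after Hist1h1d, Hist1h1b and Hist2h4 had 1.80 and 2.96, 1.80 and 2.73, and 2.22 and 3.51. This set was examined after the values were seen, and its genes are short, so such peaks also lie close to their promoters.

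The RNA hairpin at which histone mRNAs are cut was searched as GGCTCT, any 4 bases and AGAGCC within 200 bp of the annotated gene end, and 36 of 67 histone cluster genes (53.7%) had it, against 0 of 4526 other protein-coding genes of the same chromosomes. It was found at 15 of 18 H2A, 11 of 18 H2B, 7 of 12 H3 and 3 of 6 H1 genes and at no H4 gene, where this exact stem was absent from the window. The most common form, at 27 genes, is shown from Hist1h1a (chr13:23764392-23764407, plus strand), the next, at 7 genes, from Hist1h1t (chr13:23696525-23696540, plus strand), and the others, at 1 gene each, from Hist1h3g (chr13:23535889-23535904, plus strand) and Hist2h2ac (chr3:96220418-96220433, minus strand), all from GRCm38.p6. They are printed to show how the loop differs, and capitals mark the stem that was searched.
Hist1h1a: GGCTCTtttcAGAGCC
Hist1h1t: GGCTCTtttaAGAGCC
Hist1h3g: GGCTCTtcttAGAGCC
Hist2h2ac: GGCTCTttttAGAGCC
Of the 36 hairpins, 6 lay in an interval of raised cut rate, 3 in a peak and 1 in a footprint, the same numbers in each library. Intervals covered 9.55% of the block bases in replicate 1 and 8.24% in replicate 2. Over the 21 chromosomes they covered 1.58% and 1.57%. These are shares of bases and not of hairpins, so the 2 measures differ.

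Other genes of histone biology were described in the same way. Of 14 replication-independent histone genes, 9 were open in both libraries, with medians of 5.71 in replicate 1 and 7.73 in replicate 2 over those open. H2afv had 11.8 and 15.1, the DNA damage histone H2afx 9.09 and 14.4, and H2afz 8.57 and 12.1. H1fnt, H1foo and H2afb1 of germ cells and H3f3b had none at the annotated start, and H2afy had 0.398 there in replicate 1 alone. Of 21 genes for transcription and processing of histone mRNA found in the annotation, 17 were open in both libraries, with medians of 7.15 and 8.45. The cleavage factor Cstf2t had 12.3 and 16.6, the NF-Y subunit Nfya 11.8 and 16.5, and Casp8ap2 10.3 and 14.9. The coactivator Npat had 11.03 and 13.7, the H4 promoter factor Hinfp 8.84 and 13.1, and the hairpin-binding protein gene Slbp 5.40 and 7.05, these 3 being named after their values were seen. Cpsf3, Eri1 and Zfp473 had none at the annotated start, and Nfyc had 0.498 there in replicate 2 alone. Other transcript starts of these genes were not looked at singly.

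All 18 histone chaperone genes were open in both libraries, with medians of 7.01 and 9.39, led by the centromere chaperone Hjurp with 30.5 and 36.3, Ubn1 with 12.2 and 15.9 and Ubn2 with 9.31 and 13.03. Of 80 cytosolic ribosomal protein genes, another large family of short genes, 73 were open in both libraries with medians of 6.53 and 8.48. Rplp0 had 14.9 and 14.98, Rpl7a 12.9 and 16.2 and Rpl23 11.5 and 15.7. Rpl10l, Rpl17 and Rpl39l were among the 7 without a peak at the annotated start. The histone cluster medians of 3.95 and 4.40 lay below those of each of these 4 lists in both libraries. The H4 medians of 7.43 and 8.14 lay above all 4 in replicate 1 and among them in replicate 2. Those of the Hist1 H4 genes alone, 4.72 and 6.25, lay below all 4 in both libraries. Repeated 31-base words had a median share of 35.7% of the window in the family and of 0 to 5.44% in the 4 lists. Their part in the heights was not tested.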

How the data were processed

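The files of 2 DNase-seq libraries (left cerebral cortex, male B6CASTF1/J, 14 days) were analysed as deposited. Per the submitters' notes, the authors made each file from that library's own mm10 alignments without pooling. Neither the aligner, the callers and their versions nor the sequencing depth is given in the sources used here. The deposited peak lists give a signal value per peak, whose scaling by the authors is not stated. The deposited intervals give a q-value (false discovery rate) of the local cut rate and list only values up to 0.05. The deposited footprint score held 1 constant value and was not used.

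The larger peak list of each library was used, with the smaller (89013 and 92506 peaks) as an alternative. Gene models were GENCODE M21, sequences and second starts RefSeq's GRCm38.p6. A promoter window was 500 bp on each side of the 5′ end of a gene; overlap of 1 bp counted, and the strongest peak gave the signal. Words were searched from 250 bp before to 50 bp after the start on both strands, and were footprinted when 1 base lay in a footprint in both libraries. Repeated 31-base words were counted over the genome on both strands. With 1 group, values are counts, medians, means and SD over 2 libraries, with no test. Overlap counting was tested on simulated data.

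Genes named are, per histone type, the 3 highest and the 2 lowest open in both libraries, those open in 1 library, the Hist2, Hist3 and Hist4 clusters, the testis variants, those with no peak, the 3 highest and lowest ratios, and from other lists the 3 highest and up to 3 without a peak. Further genes were named after their values were seen. Members and lists were chosen with earlier results of these data known. Alternatives were the window, the start, the peak list, the overlap, the false discovery rate, block limits, repeated sequence and leaving out a library. Software was Python 3.11.15, NumPy 2.4.6, pandas 2.3.3, numba 0.67.0 and Matplotlib 3.10.9.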

Additional observations from a re-analysis of the deposited data

How the results depend on the processing

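The number of histone cluster genes with a promoter peak in both libraries was 56, and stayed between 55 and 57 over other windows, starts, overlaps and the stricter peak list; counted in each library alone it was 56 to 58. The number with a footprint was 55 to 57 over all its alternatives. The RefSeq and coding starts and the handling of repeated sequence were alternatives chosen after seeing the data. The median promoter signal, 4.18 as the mean of both libraries, was 3.70 to 4.40 when either replicate was left out, lowest without replicate 2, where the 2 genes with a peak in replicate 1 alone enter. The median share of the window in intervals, 61.1%, was 83.2% with 250 bp on each side, 38.5% with 1000 bp, 47.9% at a false discovery rate up to 0.001 and 75.9% over single-copy bases. Peaks per 100 kb of the blocks, 24.7, were 17.8 with the stricter peak list, 27.1 with blocks split at 50 kb and 19.8 at 200 kb, since these list fewer peaks or take in less or more DNA between genes. Other protein-coding genes with a promoter peak numbered 11930 to 14158. In all, 43 of 51 recomputed values stayed within the SD of the main value or within 1.5 times the count. That SD was between the libraries, and over genes for the log2 ratio. On a fixed set of genes or blocks, a single library always lies within the SD of the 2. Such values, as for peaks per 100 kb, are no check of stability. Neither is the limit of 500 bp between the starts of H2A and H2B pairs, since the widest pair lay 306 bp apart. No paired analysis was possible because the study has 1 group. With 2 libraries, depth unknown and heights scaled in an unstated way, weak peaks such as those of Hist1h1t and Hist1h2ab cannot be given a counting error, and repeated promoters limit what absence shows. The effect of CAST/EiJ alleles on placement to mm10 was not tested.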

Other observations

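Several sites in the blocks away from annotated starts recurred in both libraries and are given as values chosen after they were seen. Hist1h2be has an annotated model of 37455 bp, and a peak of 2.16 in replicate 1 and 1.90 in replicate 2 lay near its coding start, 35168 bp from the annotated start. In that long model a further peak at chr13:23598081-23598240 had 2.14 and 1.46. The peak nearest to Hist1h4c on its upstream side, at chr13:23701301-23701440 in replicate 1, had 2.81 and 2.92. In the Hist3 block a peak at chr11:58959981-58960220 in replicate 1, nearest to Hist3h2a, had 2.27 and 2.52. The highest peak of the Hist4 block at another protein-coding start had 8.04 and 8.92, the values of the H2A gene H2afj. The pseudogene Hist1h2al, which lies outside the blocks, had 0.961 and 0.774 at its start.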
